A study of Frankliniella occidentalis and Frankliniella intonsa with 9 samples.

Results

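The genes described here are those of the cilium: 71 of the 48889 assembled genes in the expression table of thrips antennae, chosen because their best database match names an intraflagellar transport protein, a Bardet-Biedl syndrome protein, an axonemal dynein, a radial spoke protein, a cilia- and flagella-associated protein, a dynein regulatory complex protein, an outer dense fiber protein or another ciliary protein. No match named tektin, and 4 genes whose wording reads ciliary neurotrophic were left out. Of the 71 genes, 39 carry transport wording (29 intraflagellar transport, 10 Bardet-Biedl) and 32 carry axoneme wording. The 2 classes are described apart. They stand for 18 transport and 17 axoneme protein names, because several assembled genes often match the same protein. The 71 genes lie in 47 components of the assembly, and genes that match the same protein within 1 component may be pieces or variants of the same transcript, so they are not independent measurements.

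A cilium is a microtubule-based projection of the cell surface. It is built and kept up by intraflagellar transport, in which trains of protein complexes (IFT-B, moving outward with kinesin-2, and IFT-A, moving back with dynein-2) carry cargo along the microtubules, while the BBSome links membrane proteins such as receptors to the trains. In insects the outer segments of olfactory, taste and mechanosensory neurons are modified cilia. Axonemal dyneins, radial spokes and the dynein regulatory complex belong to cilia that beat. In Drosophila axonemal dyneins are found in sperm and in the chordotonal neurons of the hearing organ in the antenna, while olfactory cilia lack them.

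RNA from antennae of adults aged 1 day was sequenced in 9 libraries, in 3 groups of 3: females and males of the western flower thrips Frankliniella occidentalis, and females of the related Frankliniella intonsa. No treatment, strain or genotype is given by the labels, and whether the 3 libraries of a group came from separate sets of insects is not stated, so p-values measure the spread between these libraries, which may be technical. Values are TPM, a transcript level scaled by gene length and by the library's total, over 1 assembly that holds transcripts of both species. Read depth is not known from such values. Within F. occidentalis 22666 to 24204 genes were above 0 per library, whereas the 3 F. intonsa libraries had 16360, 28515 and 10556 genes above 0. The F. intonsa libraries therefore stand apart from each other, and their values are given one by one. A gene matching Orco, the coreceptor of odorant receptors and a marker of olfactory neurons (TRINITY_DN45794_c1_g8), was at 5.87, 10.4 and 10.5 TPM in female and 6.45, 15.3 and 9.98 TPM in male F. occidentalis, and at 0.08, 15.7 and 0 TPM in F. intonsa. It was thus above 0 in all F. occidentalis libraries and listed at or near 0 in F. intonsa libraries 1 and 3. Every gene of the table reached at least 5.01 TPM in some library, so cilium genes that stayed lower everywhere are not among the 71.

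Wording is weaker than identity, and the support differs between the classes. A Swiss-Prot match was given for 61 of the 71 genes and a Pfam domain for 53. The matched organisms were animals for all 71 genes and insects for 68. Listed lengths ran from 207 to 2867 bases, with a median of 677 among transport genes and 438.5 among axoneme genes, against 458 over the whole table. All 11 dynein heavy chain genes were pieces of 207 to 339 bases, and all 11 carried the KEGG entry for axonemal dynein heavy chain. The mRNA of such a motor is many times longer, so 11 pieces do not stand for 11 motors.

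Transport and axoneme genes were both present in F. occidentalis antennae at low to moderate levels, and no gene of either class passed the test between the sexes. Of 37 cilium genes that passed the filter (at least 1 TPM in at least 3 of the 6 libraries), 0 had a Benjamini-Hochberg adjusted p under 0.05 in limma's moderated test on log2(TPM + 1), against 1.89% of the 22015 genes tested. An unadjusted p under 0.05 was reached by 2 of the 37, against 15.5% of all genes tested. Male and female libraries did not overlap for 6 of the 37 genes (4 with males above, 2 with males below), or 16.2%, against 20.1% of all genes tested. The count of members past the adjusted threshold was also 0 under each of 9 other settings and after leaving out each library in turn. Of the 34 genes not tested, 30 were listed at 0 in all 6 F. occidentalis libraries.

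All differences between the sexes are given as male minus female on the log2(TPM + 1) scale. The 20 tested transport genes had a median difference of 0.24, the 17 tested axoneme genes of 0.10, and all genes tested of 0.19. With quantile normalization these medians were 0.013, -0.17 and -0.020, so the general offset toward males depends on the scaling. The spread between libraries of 1 group was smaller for transport genes than for axoneme genes: the median residual SD was 0.48 and 0.65 on the same scale, against 0.54 over all genes tested. The tested transport genes were listed at a median length of 1129 bases and the tested axoneme genes at 411. Their levels differed too, with a median of mean TPM of 6.67 and 3.69, against 5.42 over all genes tested. The part of level and length in the spread was not tested. A p that misses the threshold does not show that a gene was level between the sexes, and with RNA of whole antennae fewer cells of a type and less RNA per cell cannot be told apart.

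**Figure D1:**
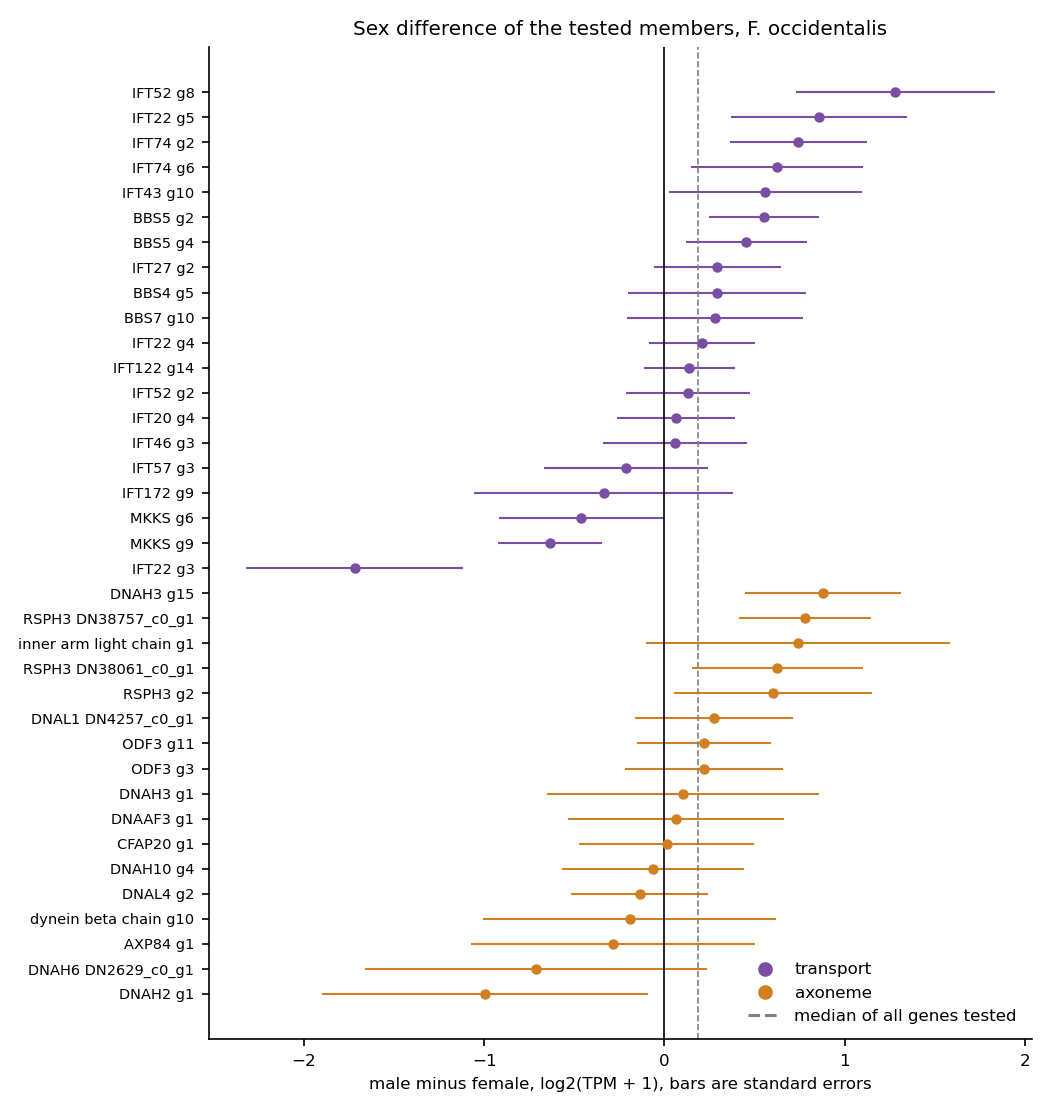
Difference between male and female F. occidentalis antennae for the 37 tested cilium genes, as male minus female on the log2(TPM + 1) scale (horizontal axis); points are fitted differences, bars are standard errors, and the dashed line is the median of all 22015 genes tested. Genes are labelled by the protein they match and the last part of their identifier; the estimates run from -1.72 to 1.28, and none passed the adjusted threshold.

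The retrograde complex IFT-A was represented by IFT122 and IFT43. The single gene matching IFT122 (TRINITY_DN39811_c1_g14, 1597 bases) had the highest mean of all transport genes in F. occidentalis. Its level was 30.8, 28.8 and 29.4 TPM in the 3 female libraries and 31.5, 35.5 and 31.3 TPM in the 3 male libraries. All 3 male libraries lay above all 3 female ones, yet the means of 29.6 ± 1.03 TPM (SD, n = 3) and 32.8 ± 2.38 TPM (SD, n = 3) differed by 0.14 ± 0.25 (SE) (limma adjusted p = 0.855). Its name rests on the annotation text alone, since no Swiss-Prot match or Pfam domain was listed for it. IFT43, a small IFT-A subunit, was lower, with 0.89, 3.2 and 1.54 TPM in females and 2.06, 5.38 and 2.31 TPM in males, and the groups overlapped.

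IFT-B, the complex that carries cargo toward the tip, supplied most transport genes: 18 matched its core and 8 its peripheral part. A gene matching IFT27, a small GTPase of the core (TRINITY_DN40863_c0_g2), was the second most abundant transport gene. Its name is uncertain, since the ortholog group listed for it names RAB35, another small GTPase, and its Pfam domain is Ras. The gene stood at 23.7, 19.7 and 29.4 TPM in females and at 19.9, 28.6 and 45.2 TPM in males. Male library 3 was the highest, and the other male libraries lay within the female range. The difference was 0.29 ± 0.35 (SE), with a limma adjusted p of 0.762. IFT52, which holds the core together, was matched by a gene of 1643 bases at 5.64, 8.52 and 4.74 TPM in females and 7.23, 7.32 and 5.95 TPM in males, with overlapping groups.

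IFT22, another small GTPase of the core, was split over 5 assembled genes of 1 component, 3 of them above 0 in F. occidentalis, whose estimates differed in sign. The piece TRINITY_DN36298_c0_g3 (293 bases) had the lowest unadjusted p of the cilium genes. It was at 5.7, 7.88 and 10.2 TPM in females and at 0, 3.71 and 2.99 TPM in males, so that every male library lay below every female one, with a difference of -1.72 ± 0.60 (SE), an unadjusted p of 0.0187 and a limma adjusted p of 0.205. A second piece, TRINITY_DN36298_c0_g5 (297 bases), had an estimate above 0 and did not pass the test either. Its values were 5.47, 3.5 and 7.59 TPM in females and 4.62, 14.4 and 16.2 TPM in males, with 2 male libraries above all others and 1 within the female range (difference 0.86 ± 0.49 (SE), limma adjusted p = 0.457). The third, TRINITY_DN36298_c0_g4, named by annotation text alone, was at 11.1, 14.4 and 13.1 TPM in females and 14.2, 13 and 17.9 TPM in males. Summed over the component, which holds no other gene, IFT22 stood at 22.3, 25.8 and 30.9 TPM in females and 18.8, 31.1 and 37.1 TPM in males, and the difference was 0.10, with overlapping groups.

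The estimates furthest above 0 among transport genes also came from core pieces, and none passed the test. IFT52 had a second gene, TRINITY_DN46053_c2_g8 (423 bases, no Swiss-Prot match), which was near the filter in females at 1.15, 1.21 and 0.54 TPM. The male libraries held 2.33, 7.46 and 2.72 TPM, all above the female ones; the difference was 1.28 ± 0.55 (SE), with an unadjusted p of 0.0451 and a limma adjusted p of 0.31. IFT74, a coiled-coil subunit that binds tubulin cargo together with IFT81, was at 3.29, 4.41 and 6.81 TPM in females and 5.92, 10.9 and 9.33 TPM in males in the gene TRINITY_DN40789_c0_g2. The lowest male library overlapped the females, and the difference of 0.74 ± 0.38 (SE) had a limma adjusted p of 0.403.

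Among the peripheral IFT-B subunits, IFT20 differed little between the F. occidentalis libraries. Its gene TRINITY_DN37951_c0_g4 held 6.92, 6.5 and 7.18 TPM in females and 5.63, 9.55 and 6.94 TPM in males, and the female values lay inside the male range. IFT57, matched by a gene of 1501 bases, was at 2.89, 3.18 and 4.68 TPM in females and 4.36, 1.4 and 3.6 TPM in males. IFT172, the largest subunit, was seen in F. occidentalis only as a piece of 228 bases, at 3.32, 3.2 and 2.09 TPM in females and 6.82, 2.56 and 0 TPM in males. IFT46, a core subunit needed for dynein arm delivery in Chlamydomonas, was at 3.21, 6.01 and 9.56 TPM in females and 6.13, 6.08 and 5.95 TPM in males, where the male values were nearly identical and lay within the female range.

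The BBSome was represented by BBS1, BBS4, BBS5 and BBS7. BBS5, a subunit that binds membrane lipids, was the most abundant of them in F. occidentalis, in 2 genes of 1 component. The gene TRINITY_DN45131_c0_g4 (1480 bases) held 7.82, 9.47 and 9.89 TPM in females and 9.11, 17.7 and 12.7 TPM in males, with 1 male library inside the female range and a difference of 0.45 ± 0.33 (SE) (limma adjusted p = 0.583). The other BBS5 gene, of 1446 bases, was at 5.87, 7.31 and 5.55 TPM in females and 9.52, 9.86 and 9.35 TPM in males, without overlap, and its limma adjusted p was 0.441. BBS4 and BBS7 were lower in both sexes, between 1.94 and 7.8 TPM, and overlapped. BBS1 was listed at 0 in all 6 F. occidentalis libraries.

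MKKS, also called BBS6, is a chaperonin-like protein that helps to assemble the BBSome and does not travel with the trains. Its 2 genes were among the most abundant of the transport class in F. occidentalis. The gene TRINITY_DN44795_c0_g9 (named by annotation text and a Pfam domain) held 21, 23.6 and 22 TPM in females and 17.8, 11.9 and 12.7 TPM in males, so all male libraries were below all female ones. The difference was -0.63 ± 0.29 (SE), and the limma adjusted p was 0.337. In the second MKKS gene, of 2139 bases, the female libraries at 13.8, 15.2 and 18 TPM lay within the male range of 21, 12.1 and 5.03 TPM.

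**Figure D2:**
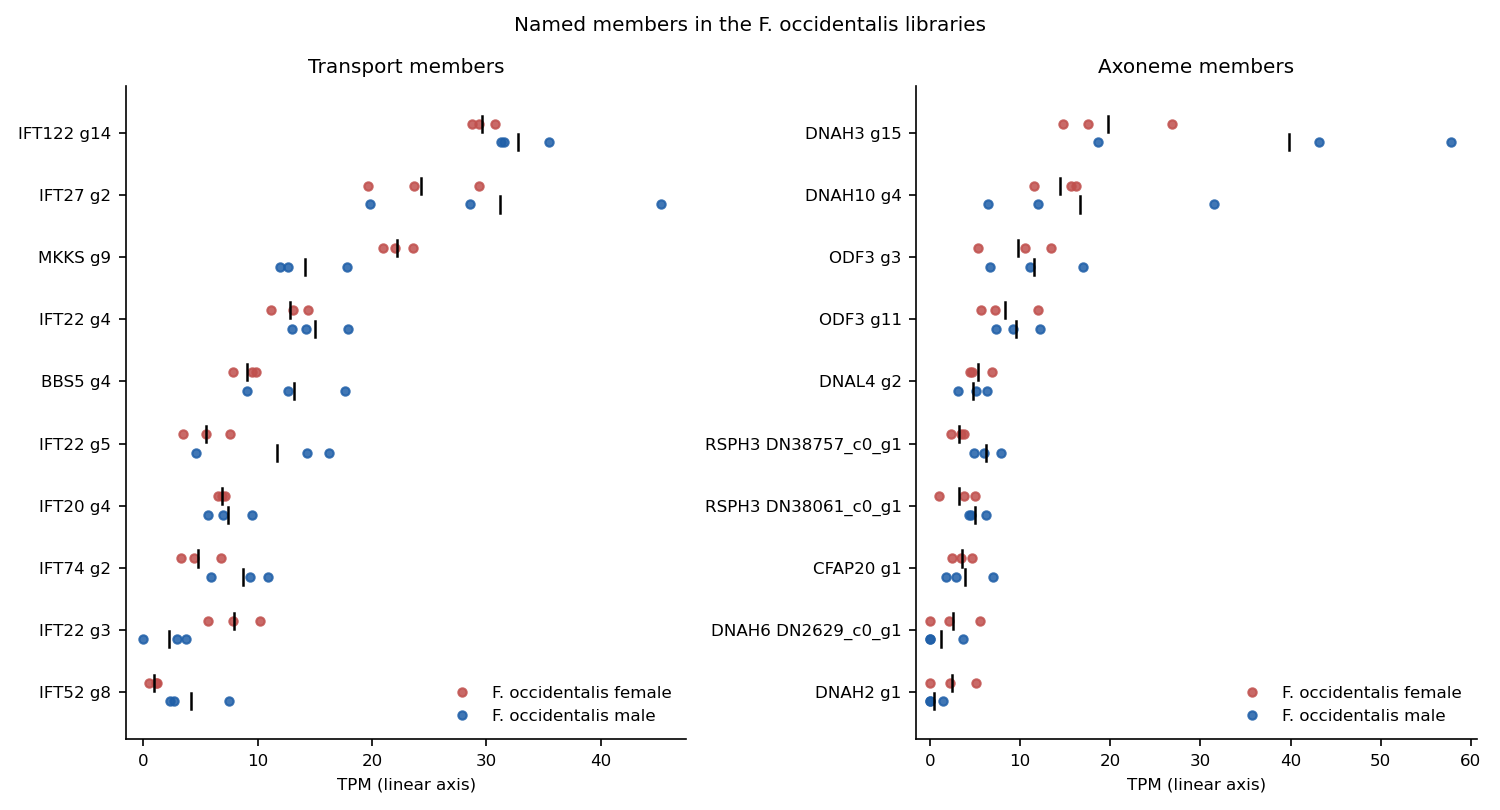
TPM (linear horizontal axis) of the named transport genes (left) and axoneme genes (right) in the 3 female (red) and 3 male (blue) F. occidentalis libraries; each point is 1 library and each black bar the mean of 3. IFT122 keeps within 28.8 to 35.5 TPM over the 6 libraries, whereas the DNAH3 piece runs from 14.8 to 57.8 TPM.

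Axonemal genes were found in the antennae of both sexes, and the 2 genes of highest mean were pieces of dynein heavy chains, the motor subunits of the dynein arms. Neither they nor any other axoneme gene passed the test between the sexes. Of the 11 heavy chain pieces, 8 were above 0 in F. occidentalis and 3 of these in all 6 libraries. The piece matching DNAH3, an inner arm heavy chain (TRINITY_DN46120_c1_g15, 322 bases), had the highest mean of the class. Females were at 26.9, 17.6 and 14.8 TPM and males at 18.7, 57.8 and 43.1 TPM; 2 male libraries exceeded every female one and the third lay within the female range. The means of 19.7 ± 6.33 TPM (SD, n = 3) and 39.9 ± 19.7 TPM (SD, n = 3) differed by 0.88 ± 0.43 (SE), with a limma adjusted p of 0.381. A DNAH10 piece (TRINITY_DN38324_c0_g4, 339 bases), also from an inner arm chain, held 16.2, 15.7 and 11.5 TPM in females and 6.43, 12.1 and 31.5 TPM in males, where the male libraries included both the lowest and the highest value.

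The remaining heavy chain pieces were lower and often listed at 0. The DNAH2 piece (TRINITY_DN17851_c0_g1) was at 2.2, 5.13 and 0 TPM in females and 0, 1.48 and 0 TPM in males, and the DNAH6 piece (TRINITY_DN2629_c0_g1) at 2.13, 5.58 and 0 TPM and 3.68, 0 and 0 TPM. Both had their fitted difference below 0, at -0.99 ± 0.90 (SE) and -0.71 ± 0.95 (SE), and both overlapped between the sexes, with limma adjusted p of 0.668 and 0.789. The DNAH8 piece, from an outer arm chain, was above 0 in only 2 libraries, at 0.54 TPM in 1 female and 5.77 TPM in 1 male library. The 2 pieces matching a dynein beta chain of the outer arm summed to 2.28, 2.32 and 7.61 TPM in females and 7.99, 0 and 20.9 TPM in males, so that the lowest and the highest value were both male. Summed over all heavy chain pieces, females were at 51.9, 46.8 and 39.0 TPM and males at 37.3, 78.6 and 102 TPM. The male sums spread more widely than the female ones and enclosed them. Since the pieces are short and some may belong to the same transcript, these sums do not measure the level of a motor.

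The smaller dynein subunits and most structural axoneme genes stood at a few TPM. DNAL4, a dynein light chain (TRINITY_DN40331_c0_g2, 1198 bases), was at 4.44, 6.92 and 4.66 TPM in females and 5.08, 6.36 and 3.09 TPM in males. CFAP20, a conserved axoneme and basal body protein (TRINITY_DN44681_c0_g1), was at 4.71, 3.43 and 2.44 TPM and 7.03, 1.83 and 2.92 TPM. Both overlapped, with differences of -0.14 ± 0.38 (SE) and 0.01 ± 0.49 (SE). The light chain DNAL1 lay between 2.08 and 5.44 TPM and the dynein arm assembly factor DNAAF3 between 0.48 and 3.17 TPM over the 6 libraries. A piece matching an inner arm light chain was at 0, 1.5 and 1.32 TPM in females and 2.94, 0 and 5.86 TPM in males, with overlap. Both AXP84 genes, which match an axonemal protein of a tunicate, stayed at or below 1.69 TPM in F. occidentalis and reached 5.28 and 6.99 TPM in the second F. intonsa library.

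Radial spoke protein RSPH3, which in vertebrates and Chlamydomonas sits in the stalk of the spoke that links the outer microtubules to the central pair, was matched by 3 genes. One of them (TRINITY_DN38757_c0_g1, 1081 bases, annotation text alone) was the only tested axoneme gene whose sexes did not overlap. Females were at 3.47, 2.32 and 3.84 TPM and males at 6, 7.88 and 4.85 TPM, a difference of 0.78 ± 0.37 (SE) with a limma adjusted p of 0.355. A second RSPH3 gene (TRINITY_DN38061_c0_g1) was at 1.07, 5.01 and 3.74 TPM and 6.2, 4.62 and 4.36 TPM, where 1 female library was low and the rest overlapped. The last one (TRINITY_DN38061_c0_g2) was at 3.22, 0.9 and 4.07 TPM and 1.9, 5.29 and 6.76 TPM, also with overlap, and neither passed. Summed over its 3 genes RSPH3 stood at 7.76, 8.23 and 11.7 TPM in females and 14.1, 17.8 and 16 TPM in males, so the sums of all male libraries were above all female ones. The same held for the sums of BBS5 (13.7, 16.8 and 15.4 TPM against 18.6, 27.5 and 22.1 TPM) and of IFT74 (4.83, 10.6 and 11 TPM against 11.4, 20 and 13.6 TPM). No p is given for these protein sums, and the sums of most other protein names above 0 in F. occidentalis overlapped. By single gene, the sexes did not overlap for 16.2% of the tested cilium genes, against 20.1% of all genes tested. No such share over all genes is at hand for protein sums.

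The 3 genes with outer dense fiber wording are the least certain members. Each matched outer dense fiber protein 3 in Swiss-Prot and carried the SHIPPO repeat of that family in Pfam, while the annotation text named other proteins. The gene TRINITY_DN44887_c1_g3 (1600 bases) was the only cilium gene above 0 in all 9 libraries. It held 10.6, 5.34 and 13.5 TPM in female and 11.2, 17 and 6.63 TPM in male F. occidentalis and 1.69, 12.2 and 0.15 TPM in F. intonsa. A second gene of the component (TRINITY_DN44887_c1_g11) was at 7.23, 5.65 and 12 TPM in females and 7.32, 12.2 and 9.25 TPM in males. For both, the sexes overlapped and the difference was 0.22.

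Summed per class, transport genes made up 0.0185% ± 0.00178 (SD, n = 3) of the TPM in females and 0.0212% ± 0.00198 (SD, n = 3) in males of F. occidentalis, and axoneme genes 0.00939% ± 0.000537 (SD, n = 3) and 0.0137% ± 0.00317 (SD, n = 3). The transport sums of the 2 sexes overlapped, at 158, 180 and 192 TPM in females and 183, 218 and 199 TPM in males. The axoneme sums were 92.9, 83.9 and 93.3 TPM in females and 95.1, 141 and 151 TPM in males; they did not overlap, but the lowest male library lay just above the females. Of these sums, the short heavy chain pieces supplied 51.9, 46.8 and 39.0 TPM in females and 37.3, 78.6 and 102 TPM in males. Without the DNAH3 piece of highest TPM, the axoneme share was 0.00733% in females and 0.00943% in males.

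**Figure D3:**
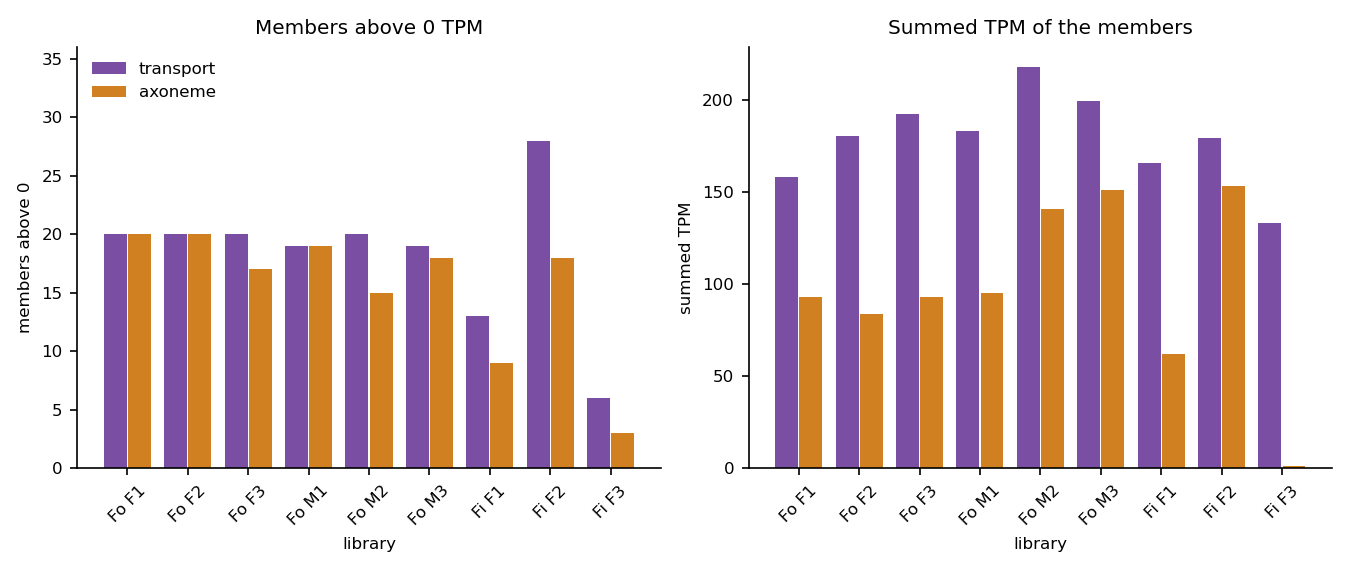
Number of cilium genes above 0 (left) and their summed TPM (right) per library for the transport (purple) and axoneme (orange) classes; Fo is F. occidentalis, Fi F. intonsa, F female and M male, with 1 bar per class and library. The F. intonsa libraries hold 13, 28 and 6 transport genes and 9, 18 and 3 axoneme genes above 0.

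Marker lists of other tissues were summed in the same libraries. The fat body list, mostly vitellogenin, the egg yolk precursor, summed to between 6672 and 12478 TPM in the female and between 87.9 and 159 TPM in the male F. occidentalis libraries, and 35 of its 45 tested genes were lower in males in the same limma test (adjusted p under 0.05). The neuron list summed to between 155 and 189 TPM in females and between 198 and 370 TPM in males, with 0 of 33 tested genes past the threshold. The sperm and testis list summed to between 74.2 and 83.2 TPM in females and between 81.7 and 134 TPM in males, with 0 of 12 tested genes past it. The muscle list summed to between 11966 and 16020 TPM in females and between 7500 and 11428 TPM in males, with 0 of 39 tested genes past it. Over all 22015 genes tested, 1.89% passed between the sexes. In F. intonsa libraries 1, 2 and 3 the neuron list summed to 110, 406 and 11.2 TPM. The muscle list summed there to 665, 13696 and 336 TPM, and the fat body list to 48.4, 2017 and 8.49 TPM. The sperm and testis list stood at 123, 207 and 5.2 TPM. Each list was highest in the second library and lowest in the third, as was the number of cilium genes above 0 (22, 46 and 9). The part of these tissues in the levels of the cilium genes was not tested.

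F. intonsa was compared with female F. occidentalis, a comparison that shares its F. occidentalis libraries with the sex comparison. Many cilium proteins were found in both species, but often through different assembled genes. Of the 71 genes, 16 (22.5%) were above 0 in at least 1 library of each species, 25 (35.2%) were seen only in F. occidentalis and 30 (42.3%) only in F. intonsa. Over all 48889 genes these shares were 20.3%, 36.9% and 42.8%, so the cilium genes split much as all genes did. By protein name, 13 of 18 transport proteins and 9 of 17 axoneme proteins had a gene above 0 in both species. Pooling genes under a name makes such overlap more likely, and no share over all protein names is at hand. The count includes IFT122 and BBS7, which reached only 0.02 and 0.25 TPM in F. intonsa, in the second library. For 5 transport proteins and 2 axoneme proteins the overlap came from separate genes of 1 component, each at 0 in the other species.

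**Figure D4:**
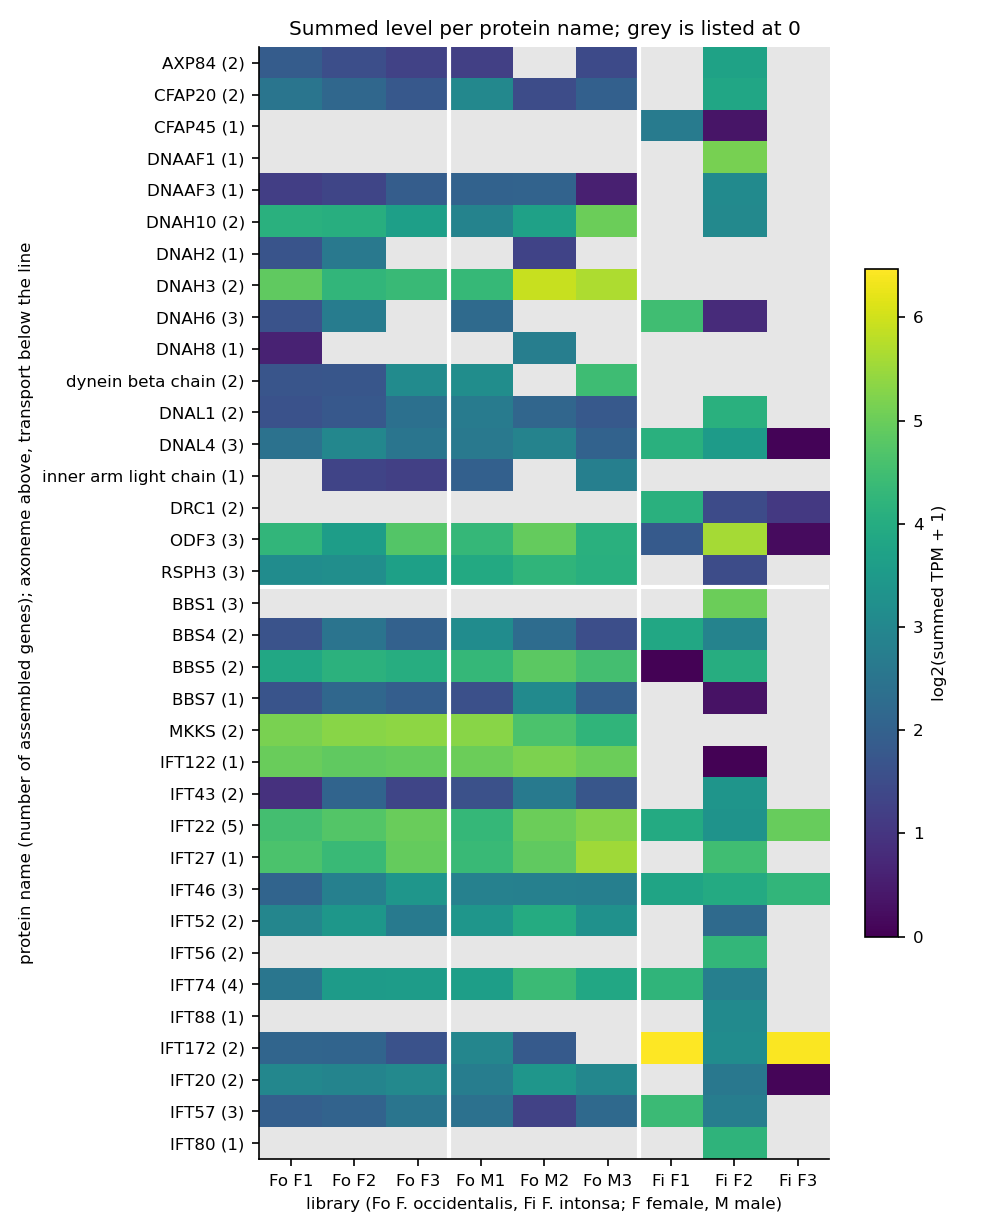
Level of each cilium protein name in each of the 9 libraries, as log2 of the TPM summed over its assembled genes plus 1 (colour); the number of genes is in brackets, axoneme proteins are above and transport proteins below the white line, and grey cells are listed at 0. The second F. intonsa library shows most proteins, whereas the third is grey except for 4 transport and 3 axoneme proteins.

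The proteins found through separate genes of 1 component can be set side by side, as sums over their genes. IFT74 was at 4.83, 10.6 and 11 TPM in female F. occidentalis and at 8.85, 4.23 and 0 TPM in F. intonsa within its main component, and a gene of another component added 8.97, 1.72 and 0 TPM in F. intonsa. IFT20 stood at 6.92, 6.5 and 7.18 TPM in female F. occidentalis and at 0, 5.01 and 0.06 TPM in F. intonsa, and IFT43 at 0.89, 3.2 and 1.54 TPM and 0, 9.41 and 0 TPM. For IFT43 1 F. intonsa library lay above the F. occidentalis females and the others were listed at 0. Within its main component no F. intonsa library of IFT74 lay above all females, and IFT20 was below them in all 3. CFAP20 was at 4.71, 3.43 and 2.44 TPM in female F. occidentalis and at 0, 13.2 and 0 TPM in F. intonsa, where a single library carried it. DNAL4 was at 4.44, 6.92 and 4.66 TPM in female F. occidentalis and at 16.2, 10.7 and 0.05 TPM in F. intonsa, so that 2 F. intonsa libraries lay above the females of the other species and the third was near 0.

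IFT172, IFT22 and IFT46 were the transport proteins listed above 0 in all 3 F. intonsa libraries. The IFT172 gene TRINITY_DN39502_c0_g12 (969 bases) stood at 87.3, 6.99 and 85.2 TPM in F. intonsa and was listed at 0 in all 6 F. occidentalis libraries. The second library was far below the other two. This gene alone made up 52.6%, 3.9% and 63.9% of the transport TPM of the 3 libraries. The main F. intonsa gene of IFT22 (TRINITY_DN36298_c0_g1) was at 13.4, 8.86 and 22 TPM, and that of IFT46 (TRINITY_DN41571_c1_g8) at 7.08, 9.05 and 8.03 TPM; both were at 0 in F. occidentalis. The IFT46 values were the most even of the 3 genes. With their component partners, IFT22 summed to 14.5, 9.03 and 30.1 TPM and IFT46 to 12.6, 14.5 and 18 TPM in F. intonsa.

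Most other cilium genes were seen mainly in the second F. intonsa library. Over the whole table, too, that library held most genes seen in F. intonsa. It had 28515 genes above 0, while 9928 genes were above 0 in both species and 20927 in F. intonsa alone. The share of all genes seen in the second library alone is not at hand. All 46 cilium genes above 0 in F. intonsa were above 0 in the second library, and 23 of them in that library alone. These include all genes matching BBS1, IFT56, IFT80 and IFT88, 4 transport proteins without a gene in F. occidentalis, at between 6.55 and 17.3 TPM per gene. IFT27 was at 0, 21.5 and 0 TPM in F. intonsa, where the second library lay within the range of female F. occidentalis and the others were listed at 0. IFT122, the top transport gene of F. occidentalis, was at 0, 0.02 and 0 TPM. MKKS was at 0 in all 3 libraries.

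The axoneme class was more uneven still in F. intonsa, with sums of 62.0, 154 and 1.3 TPM. DNAAF1, a dynein arm assembly factor (TRINITY_DN45094_c0_g13), was at 0, 34.4 and 0 TPM, and the closest match of this piece was a tapeworm protein. The outer dense fiber gene TRINITY_DN43626_c0_g4 was at 0.86, 35.3 and 0 TPM, against 0.19, 0.11 and 0.23 TPM in female F. occidentalis. DNAL4 was found in F. intonsa through other genes of its component, of which TRINITY_DN40331_c0_g7 was at 10, 6.02 and 0.05 TPM. DRC1, a subunit of the dynein regulatory complex, and CFAP45 had genes above 0 in F. intonsa alone. DRC1 summed to 16.3, 1.77 and 1.1 TPM over its 2 genes, and CFAP45 was at 5.41, 0.29 and 0 TPM; both were highest in the first library. The same held for the 2 DNAH6 pieces of F. intonsa, which summed to 21.5, 0.73 and 0 TPM. These proteins thus did not follow the order of the libraries seen for most cilium genes.

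Between the species 27 of 35 tested cilium genes (77.1%) passed the adjusted threshold, against 85.4% of the 21231 genes tested. In F. intonsa 4 were higher and 23 lower, against 3625 higher and 14502 lower over all genes tested. A gene at 0 in female F. occidentalis was tested only if it reached 1 TPM in all 3 F. intonsa libraries. Genes seen mainly in the second F. intonsa library were thus often left out, and the split in direction depends on this filter. For 21 of the 27 the gene was listed at 0 in every library of 1 species, so no fold is given. Among the 14 tested genes above 0 in both female groups, 6 passed. Each of the 6 was above 0 in only 1 F. intonsa library, the second, and met the filter through female F. occidentalis. No share over all genes above 0 in both female groups is at hand. IFT122 is one of the 6, at -4.93 ± 0.15 (SE) on the log2(TPM + 1) scale (limma adjusted p = 8.8e-06). Its F. intonsa values were 0, 0.02 and 0 TPM, so this estimate is in effect set against a group listed at 0. With components summed, which can add genes of other proteins, the difference was -0.31 (limma adjusted p = 0.802). The RSPH3 gene TRINITY_DN38757_c0_g1 is another, from 3.47, 2.32 and 3.84 TPM in F. occidentalis females to 0, 0.17 and 0 TPM in F. intonsa, again near 0. Its difference was -1.98 ± 0.18 (SE), with a limma adjusted p of 0.00018. With quantile normalization this difference turned to 0.17 and the call was lost (adjusted p = 0.443). BBS5 (TRINITY_DN45131_c0_g4) had -2.43 ± 0.79 (SE) with an adjusted p of 0.031, from 7.82, 9.47 and 9.89 TPM to 0, 5.45 and 0 TPM. This call was marginal: it was lost with a pseudocount of 0.1 (adjusted p = 0.0506), without a filter (0.0616), with components summed (0.0999) and with quantile normalization, where the difference was -0.29 (0.659). It was also lost without F. intonsa library 1 (0.0816) or 3 (0.0752) and without any one female F. occidentalis library (0.079 to 0.0958). The genes that did not pass matched IFT27, BBS4, BBS5 (the other gene, adjusted p = 0.166), IFT57, AXP84, DNAAF3, RSPH3 (TRINITY_DN38061_c0_g2) and outer dense fiber protein (TRINITY_DN44887_c1_g3). Without the second F. intonsa library, IFT27 passed at -4.64 (adjusted p = 4.12e-05) and TRINITY_DN44887_c1_g3 at -2.54 (adjusted p = 0.00618). Without the third F. intonsa library, the one with the fewest genes above 0, 21 cilium genes were called.

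Genes that work with the trains gave no call between the sexes either. Over all 22015 genes tested 1.89% passed, so 0 is a likely count for lists this short. The motors of transport, kinesin-2 and dynein-2, had 8 genes of which 5 were tested and 0 passed. The KIF3A match TRINITY_DN43957_c0_g1, a kinesin-2 motor subunit, was at 4.29, 5.82 and 7.02 TPM in females and 8.62, 7.29 and 5.3 TPM in males, with overlapping groups. In transition zone and basal body genes, which form the gate and the root of the cilium, 0 of 5 tested genes passed, and in small GTPases and adaptors of ciliary traffic 0 of 6. A list of genes that belong to the trains, the BBSome or the axoneme under other names, drawn up after the annotation had been read, held 14 genes, of which 4 were tested and 0 passed. Among sensory channels and receptor coreceptors, the cargo side of the cilium, 0 of 12 tested genes passed. In F. intonsa this list summed to 0.08, 52.5 and 0 TPM in the 3 libraries.

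Apart from the fat body list, a single gene of the related lists passed the test between the sexes. It matched FOXJ1, the forkhead factor that switches on motile cilium genes in vertebrates (TRINITY_DN38184_c1_g1), at 1.53, 1.08 and 1.18 TPM in females and 13, 5.09 and 12.3 TPM in males, without overlap. The difference was 2.21 ± 0.44 (SE), with a limma adjusted p of 0.0427. The call was marginal: the limma adjusted p ran from 0.0128 to 0.165 over the alternatives. It rose above 0.05 with a pseudocount of 0.1 (0.0527), without the trend (0.0617), without a filter (0.111) and with quantile normalization (0.111). The same held with a replicate block and when any library other than male library 2 was left out. Its annotation text is an uncharacterized protein of the butterfly Papilio xuthus, and its KEGG entry names another forkhead class. Genes annotated to Papilio xuthus were 260 of the 22015 genes tested (1.18%), 41 of the 213 genes higher in males (19.2%) and 0 of the 202 lower in males. What this shared annotation has to do with the FOXJ1 match was not tested.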

How the data were processed

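RNA-seq values of 9 libraries were used. Per the labels' protocols, cDNA was made by template switching from small amounts of total RNA and amplified by PCR before library construction. The submitters' processing notes name cutadapt, FastQC and Salmon, without versions; which assembler, annotation release or filter was used is not given in the sources used here. Per assembled gene, the authors deposited TPM in a single table; the unit follows from column totals of 935518 to 987791 and from Salmon. All 9 columns matched a sample by name, and 0 were left without one. No read numbers are held, so counting error is unknown. No genome was used, and no sequence was read.

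Cilium genes were found by wording in the Swiss-Prot and annotation columns. These genes, the lists of related genes and the naming rule were chosen with earlier results of these data known. Each comparison was fitted over the whole table with limma 3.58.1 (R 4.3.3; moderated test with a mean-variance trend, two-sided) on log2(TPM + 1), for genes of at least 1 TPM in at least 3 of its 6 libraries, with Benjamini-Hochberg adjustment and a threshold of 0.05. Differences on this scale understate changes of low genes. Males were compared with females of F. occidentalis, and F. intonsa females with F. occidentalis females; no covariate was used. No fold is given against a group listed at 0. The fit was tested on simulated data. Python 3.11.15 with pandas 2.3.3, numpy 2.4.6 and matplotlib 3.10.9 served for tables and plots.

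Named genes are those of highest mean in F. occidentalis (8 per class, 1 per annotation text), the 2 largest rises and falls per class between the sexes, genes above 0 in all 9 libraries and the 3 of highest mean per class in F. intonsa; other values are given to complete a protein. Related lists by wording cover transport motors, transition zone, small GTPases and adaptors, transcription factors, sensory channels and coreceptors, and neuron, muscle, fat body, and sperm and testis markers. Polyamine wording was taken out of the sperm list after its names were seen. Alternatives were a pseudocount of 0.1, no filter, a filter at 5 TPM, no trend, quantile normalization, a replicate block, all 9 libraries in 1 fit, sums per component, genes above 0 in both species, and leaving out each library.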

Additional observations from a re-analysis of the deposited data

How the results depend on the processing

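Between the sexes 0 cilium genes passed under every alternative run, and the lowest adjusted p of a named gene over all of them was 0.118. Over all genes 415 passed, against 271 with a pseudocount of 0.1, 116 without a filter, 198 without the trend, 207 with quantile normalization, 773 for genes seen in both species and 18 to 285 when 1 library was left out, with 18, 23 and 36 without female library 1, 2 and 3. The median difference of transport genes (0.24) was 0.013 with quantile normalization and 0.12 with components summed, and 0.13 to 0.31 when 1 library was left out; that of axoneme genes (0.10) was 0.19 without a filter, 0.22 with a stricter filter and among genes above 0 in both species, -0.17 with quantile normalization, and 0.022 to 0.47 when 1 library was left out. Of 20 named genes, 10 changed sign under some alternative: with components summed TRINITY_DN36298_c0_g3 (0.10), TRINITY_DN37951_c0_g4 (-0.21), TRINITY_DN38324_c0_g4 (0.18), TRINITY_DN39811_c1_g14 (-0.062), TRINITY_DN44795_c0_g9 (0.14) and TRINITY_DN46053_c2_g8 (-0.12), with quantile normalization TRINITY_DN37951_c0_g4 (-0.17) and TRINITY_DN44681_c0_g1 (-0.27), the latter also with the smaller pseudocount (-0.018). Leaving out 1 library changed the sign of TRINITY_DN37951_c0_g4 (-0.12 to 0.22), TRINITY_DN38324_c0_g4 (-0.64 to 0.43), TRINITY_DN40331_c0_g2 (-0.33 to 0.099), TRINITY_DN40863_c0_g2 (-0.0067 to 0.57), TRINITY_DN44681_c0_g1 (-0.41 to 0.34) and TRINITY_DN44887_c1_g3 (-0.13 to 0.54). Between the species 27 cilium genes passed, against 14 with the stricter filter, 12 with quantile normalization, 12 with components summed, 5 for genes seen in both species and 4 to 28 when 1 library was left out; without a female F. occidentalis library, genes at 0 in F. intonsa cannot reach 1 TPM in 3 libraries and are not tested. Over all genes 18127 passed, against 9243, 11047, 6081, 3128 and 3346 to 16126. With quantile normalization TRINITY_DN38757_c0_g1 (0.17) and TRINITY_DN44887_c1_g3 (1.10) changed sign. Component sums can include genes of other proteins. The cause of these shifts was otherwise not tested.

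The summed transport share of TPM was 0.0154% in F. occidentalis females and 0.0177% in males without the gene of highest TPM, 0.0116% and 0.0142% without members lacking a Swiss-Prot match, and 0.0145% and 0.0184% without MKKS. The axoneme share was 0.00733% and 0.00943% without the gene of highest TPM, and 0.00749% in females without the outer dense fiber genes. In F. intonsa the mean shares of all TPM were 0.0163% (transport) and 0.00747% (axoneme), both below the means of F. occidentalis females (0.0185% and 0.00939%), with overlapping libraries. Relative to genes with a database match the order of the means turned. The transport shares were 0.0245% in females, 0.0293% in males and 0.106% in F. intonsa, and the axoneme shares 0.0125%, 0.0189% and 0.0240%. Only the divisor differs from the shares of all TPM, and the F. intonsa values are means over unlike libraries. Of all TPM, transport genes held 0.0169%, 0.0187% and 0.0135% in F. intonsa libraries 1, 2 and 3, and axoneme genes 0.0063%, 0.0160% and 0.00013%. The choices of MKKS, outer dense fiber and Swiss-Prot members were made after seeing the data.

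Same-numbered libraries showed no sign of deviating together (correlations of -0.055 to 0.050 in both comparisons, against -0.052 to 0.057 for unlike numbers). Whether same-numbered libraries were collected or prepared together is not known from this. With a replicate block 0 cilium genes passed between the sexes (363 over all genes) and 27 between the species, and the FOXJ1 match had an adjusted p of 0.0512. TPM carry no read numbers, so whether a 0 is absence or low depth is unknown.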

Other observations

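Some genes of the transport trains and the axoneme are listed under names outside the wording rule, and the following were chosen after their values were seen. A match to SPAG6, a protein of the central pair of the axoneme (TRINITY_DN45308_c0_g4), was at 73.3, 1.66 and 4.31 TPM in the 3 F. intonsa libraries and at or below 0.57 TPM in all 6 F. occidentalis libraries. A second SPAG6 match (TRINITY_DN43298_c0_g9) was at 21.5, 0.12 and 0.49 TPM in F. intonsa and between 0.58 and 1.08 TPM in F. occidentalis. Both were highest in the first F. intonsa library, whereas most cilium genes of the species were seen mainly in the second. A match to TTC8, the BBSome subunit BBS8 (TRINITY_DN42571_c0_g3), was at 1.41, 4.62 and 20.3 TPM in F. intonsa and highest in the third library. A match to unc-119, a carrier of lipid-modified ciliary proteins (TRINITY_DN42430_c3_g4), was at 39.9, 5.1 and 37.7 TPM in F. intonsa and at 0 in F. occidentalis, with the same order of libraries as the IFT172 gene. WDR19, the IFT-A subunit IFT144 (TRINITY_DN27074_c0_g1), was at 3.21, 0.61 and 5.34 TPM in female and 5.91, 3.66 and 1.76 TPM in male F. occidentalis, with overlapping groups. None of these patterns was tested between libraries.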
